A study of Mus musculus with 6 samples.

Results

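Laminins are the cross-shaped glycoproteins of basement membranes, each assembled from 1 α, 1 β and 1 γ chain. They polymerise under the cell, bind nidogens, perlecan, agrin and collagen IV, and are held by integrins and dystroglycan on the cell surface. In the alveolus, epithelial and endothelial cells lie on such membranes, and lung fibroblasts (FBs) also make laminin chains. The genes of 9 chains were followed in 6 single-cell RNA-Seq libraries of mouse lung cells. They were the α chains Lama2, Lama3, Lama4 and Lama5, the β chains Lamb1, Lamb2 and Lamb3, and the γ chains Lamc1 and Lamc3. They were chosen by symbol, and all 9 have a row in each of the 6 count tables, which hold 42625 distinct gene symbols together.

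All FBs came from Pdgfra-GFP reporter mice, in which a green fluorescent protein gene at the Pdgfra locus marks cells that transcribe this growth factor receptor. GFP+ cells were sorted from lungs given bleomycin, a drug that injures the lung and causes fibrosis, or PBS, its vehicle, in 50 µl. The mice of the study were 10 to 14 weeks old. In the single-dose experiment, mice received 1 dose and their lungs were collected on day 14. The sample labels give this bleomycin dose as 2 U/kg in one field and 4 U/kg in another. In the repetitive experiment, mice received 3 weekly doses, the first and second bleomycin doses being 1 U/kg and the last 0.5 U/kg, and lungs were taken 2 weeks after the last dose. In the organoid experiment, type 2 alveolar epithelial cells (AEC2s), lineage-labelled by a tamoxifen-induced Cre under the surfactant protein C promoter, were grown for 2 weeks in matrigel with GFP+ FBs from PBS lungs (normal) or from lungs 14 days after bleomycin at 2 U/kg (fibrogenic). The labels give 10 AEC2s per FB, whereas the methods of the study describe more FBs than AEC2s. Each condition is 1 library pooled from 3 mice, so differences between mice cannot be estimated and no test between conditions was possible. All intervals below are exact 95% Poisson or conditional intervals and cover counting error alone.

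The libraries held 1060 (single PBS), 1015 (single bleomycin), 6139 (repetitive PBS), 10737 (repetitive bleomycin), 5441 (normal organoid) and 8894 (fibrogenic organoid) barcodes, with 7201081 to 238618743 unique molecular identifiers (UMIs) per library. Barcodes were clustered without the laminin genes and their partners, and a cluster was called "X-like" from marker genes. The libraries of an experiment shared 2 to 28 barcode sequences. FB-like clusters held 903 and 783 barcodes after a single dose of PBS and bleomycin, 5267 and 6344 after repetitive exposure, and 1921 and 2092 in normal and fibrogenic organoids. The named barcodes of the GFP+ sorts outside FBs were mainly immune and endothelial-like. Pdgfra was present in the FBs of every library, at 520 UMIs per 1000000 UMIs of the group (counts scaled in this way, CPM, are used throughout) after single PBS and 77.3 CPM in normal organoids. Sftpc, the AEC2 surfactant gene, stood at 85646 CPM in AEC2-like cells of normal organoids, Ager, an AEC1 marker, at 4160 CPM in AEC1-like cells, and Krt8, which marks the pre-alveolar type-1 transitional state (PATS), at 4187 CPM in PATS-like cells. The AEC1-like cells were not free of the AEC2 marker. Sftpc stood in them at 34896 and 35705 CPM in normal and fibrogenic organoids, against 3673 and 1754 CPM in PATS-like cells. The fibrogenic organoid and repetitive bleomycin libraries stood apart in depth. The median barcode had 4289.5 UMIs in fibrogenic against 36841 in normal organoids, and 2478 UMIs after repetitive bleomycin against 10178 after repetitive PBS. Clusters that met no naming rule, had few UMIs or carried both epithelial and FB markers were left unnamed. This set aside 49.9% of the fibrogenic and 19.1% of the normal organoid barcodes, and 18.3% and 1.43% of those after repetitive bleomycin and PBS.

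To ask which laminin chains differed in FBs of injured lung, UMIs of all FBs in a library were summed and expressed as CPM. Lama5 rose in both experiments, and was the only one of the 7 chains tested in both to do so. Lama3 rose and Lamb3 fell after repetitive bleomycin, each at low levels. The chains with most UMIs in FBs (Lama2, Lama4, Lamb1 and Lamc1) stayed within a log2 ratio of 1 in both experiments. A change is named here where the log2 ratio of bleomycin over PBS, after adding 1 CPM to each, was at least 1 in size, among genes with at least 20 UMIs in both groups together. By this rule 1 of 7 chains tested was higher and 0 lower after a single dose, where 8.44% of all genes tested were higher and 3.76% lower. After repetitive exposure 2 of 9 chains were higher and 1 lower, where 5.54% of all genes tested were higher and 1.68% lower. The median log2 ratio of the chains was 0.42 after a single dose, beside 0.07 for all genes tested, and 0.38 after repetitive exposure, beside 0.09.

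**Figure D1:**
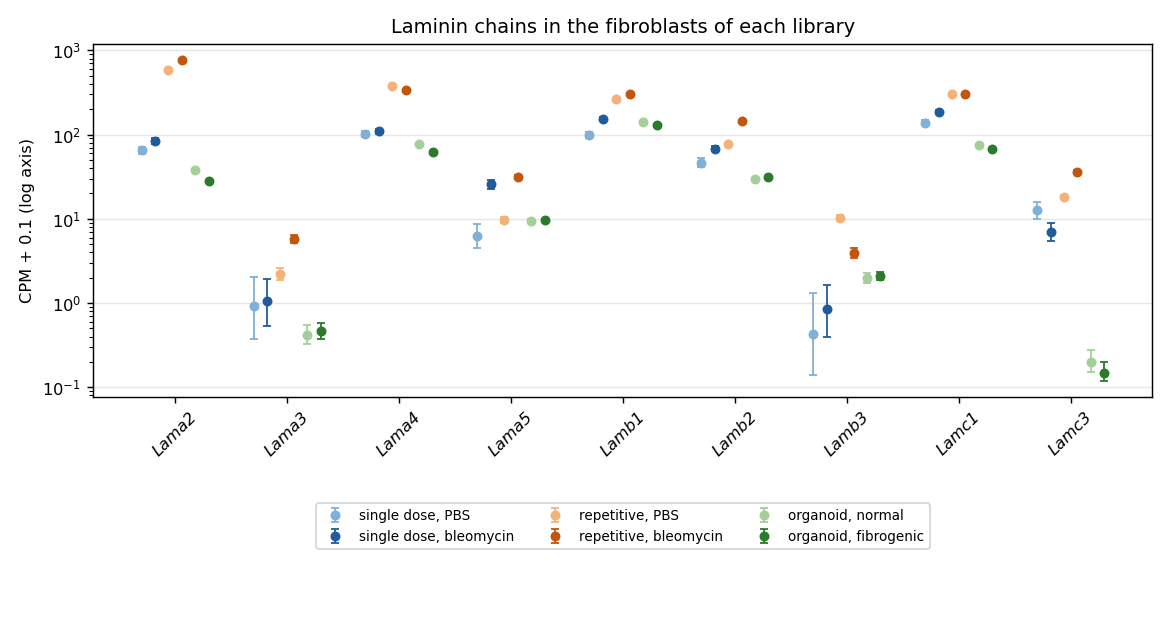
Level of each of the 9 laminin chains (CPM plus 0.1, log axis) in all FBs of the 6 libraries, 1 point per library, with exact 95% Poisson intervals. Lama5 after bleomycin (25.7 and 31.4 CPM) sits above Lama5 after PBS (6.18 and 9.55 CPM) of the same experiment. Lama4 and Lamc1 differ less than Lama5 between PBS and bleomycin of the same experiment.

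Lama5 encodes the α5 chain, which is widespread in adult epithelial and endothelial basement membranes. In FBs it stood at 6.18 CPM (interval 4.35 to 8.52) after single PBS and 25.7 CPM (22.6 to 29.1) after single bleomycin. It stood at 9.55 CPM (8.77 to 10.4) after repetitive PBS and 31.4 CPM (29.9 to 32.9) after repetitive bleomycin. Within each experiment the bleomycin level lay above the PBS level and the intervals did not overlap. The log2 ratio was 1.89 after a single dose (2.06 without the added CPM, interval 1.55 to 2.60) and 1.62 after repetitive exposure (1.71 without it, 1.57 to 1.86). The repetitive value was 2.48 at a finer clustering, and 1.62 when a shallow cluster with FB markers, of 1425 bleomycin and 34 PBS barcodes, was counted as FBs. The UMIs came from many cells, 34 and 177 FBs after single PBS and bleomycin, and 471 and 1017 FBs after repetitive PBS and bleomycin. When each FB was thinned to 2000 UMIs, the share with Lama5 was 1.29% (0.647 to 2.30, exact Clopper-Pearson) and 6.68% (4.99 to 8.71) after single PBS and bleomycin. The same shares were 1.99% (1.63 to 2.41) and 5.55% (4.90 to 6.27) after repetitive PBS and bleomycin. Thinning left out 52 and 34 FBs in the single-dose and 146 and 1914 FBs in the repetitive libraries. Without thinning the shares were 3.77% and 22.6%, then 8.94% and 16.0%. Macrophage-like barcodes of the single-dose libraries had 0 of 37 and 0 of 42 at this depth, which allows up to 9.49% and 8.41%. Unthinned, they had Lama5 in 0 of 40 barcodes after single PBS and in 15.9% of 44 after single bleomycin, at 13.9 CPM (5.99 to 27.4, 8 UMIs). In repetitive macrophage-like barcodes it stood at 7.02 CPM (3.03 to 13.8) with PBS and 18.1 CPM (13.1 to 24.3) with bleomycin. In both experiments the macrophage-like level was nominally higher with bleomycin, with intervals that overlap.

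Epithelial and endothelial cells also carry Lama5, so their markers were read in the same FBs. The 8 epithelial markers summed to 84.2 CPM after single PBS and 77.9 CPM after single bleomycin, of which Sftpc made up 82.0 and 67.9 CPM. The other 7 markers of this list were higher after a single dose, at 2.17 CPM (13 UMIs in 12 FBs) with PBS and 10.0 CPM (95 UMIs in 27 FBs) with bleomycin, where 69 of the UMIs lay in 1 cell, a myofibroblast-like one. Among them Epcam had 0 and 11 UMIs and Krt8 had 4 and 20 UMIs after single PBS and bleomycin. In repetitive FBs the 8 markers summed to 17.8 and 34.7 CPM, and the 7 without Sftpc to 0.936 and 1.28 CPM (54 and 68 UMIs), after PBS and bleomycin. Without the FBs that had a UMI of any of these 7, a choice made after seeing the data, the log2 ratio of Lama5 was 1.91 after a single dose and 1.60 after repetitive exposure. That choice left out 12 and 27 FBs after single PBS and bleomycin, and 51 and 64 FBs after repetitive PBS and bleomycin. FBs with Sftpc alone were kept. With so few FBs left out, these ratios cannot show the part of epithelial RNA in the Lama5 difference. The 8 endothelial markers summed to 66.6 and 84.1 CPM after single PBS and bleomycin, and to 40.1 and 65.9 CPM in the repetitive FBs. Ager, an AEC1 marker outside the epithelial list, stood at 2.51 and 5.29 CPM (15 and 50 UMIs) in FBs after single PBS and bleomycin. In repetitive FBs Ager stood at 0.867 and 2.23 CPM (50 and 119 UMIs). The part of Ager and of the endothelial markers in the Lama5 difference was not tested.

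The sequence upstream of Lama5 is shown because this chain passed the limit in both experiments. The run is 200 bases of the RefSeq promoter table (GRCm38.p6, minus strand, chr2:180225910-180226109), 5′ to 3′ on the strand of the gene, and lies outside the RefSeq gene span, which ends at 180225904. Matches to GGGCGG or its reverse complement CCGCCC, the GC-box letters, are in capitals. There were 3 matches, and 72% of the bases were G or C. At least 1 match was found in 8093 of 32851 windows of this length and place in the table (24.6%), whose median G and C content was 51.5%. Windows were found for 5 of the 9 chains. A match describes letters and not a bound site.
Lama5: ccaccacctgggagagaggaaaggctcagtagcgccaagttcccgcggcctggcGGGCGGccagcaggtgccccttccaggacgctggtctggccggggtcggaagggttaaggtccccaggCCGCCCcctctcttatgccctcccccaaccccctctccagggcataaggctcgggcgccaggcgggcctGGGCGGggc

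Lama2, the α chain of muscle and mesenchymal basement membranes, stood at 65.1 CPM (58.8 to 71.9) and 83.9 CPM (78.2 to 90.0) in FBs after single PBS and bleomycin, a log2 ratio of 0.36. It stood at 586 CPM (579 to 592) and 760 CPM (753 to 768) after repetitive PBS and bleomycin, a log2 ratio of 0.38. The bleomycin value was above the PBS value beyond counting error in both experiments, though within the limit set for a change. Within matrix fibroblast-like cells alone the log2 ratio of Lama2 was −0.65 after a single dose (−0.69 to −0.45 over the alternatives). It was 0.006 there after repetitive exposure (−0.13 to 0.21). Lama4, an α chain of vessels and mesenchyme, did not separate by treatment after a single dose (101 CPM, 93.5 to 110, and 109 CPM, 102 to 116). After repetitive exposure Lama4 stood at 373 CPM (368 to 378) with PBS and 338 CPM (333 to 343) with bleomycin, a log2 ratio of −0.14. Lama3, an α chain of epithelial basement membranes and hemidesmosomes, had 5 and 9 UMIs in the single-dose FBs, too few to compare. In repetitive FBs Lama3 rose from 2.12 CPM (1.76 to 2.53) to 5.63 CPM (5.01 to 6.31), a log2 ratio of 1.09 (1.41 without the added CPM, interval 1.10 to 1.73). This call of Lama3 was lost at an added 5 CPM, after centring and at a finer clustering, where its log2 ratio ranged down to 0.52.

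Among the β chains, Lamb2 had a log2 ratio of bleomycin over PBS between 0.5 and 1 in both experiments. Lamb2, a β chain of neuromuscular, kidney and vessel basement membranes, stood at 46.3 CPM (41.0 to 52.0) and 68.1 CPM (62.9 to 73.5) after single PBS and bleomycin, a log2 ratio of 0.55. It stood at 76.6 CPM (74.3 to 78.9) and 144 CPM (141 to 148) after repetitive exposure, a log2 ratio of 0.91, which ranged from 0.70 to 1.004 over the alternatives and passed the limit at 1.004, by the mean CPM of each cell. Lamb1, the β chain shared by many laminins, stood at 98.4 CPM (90.6 to 107) and 154 CPM (146 to 162), a log2 ratio of 0.64, and at 264 CPM (260 to 268) and 302 CPM (298 to 307), a log2 ratio of 0.19. Lamb3, a β chain of epithelial anchoring complexes, had 2 and 7 UMIs in single-dose FBs. In repetitive FBs Lamb3 fell from 10.2 CPM (9.42 to 11.1) to 3.81 CPM (3.31 to 4.37), a log2 ratio of −1.22 (−1.42 without the added CPM, interval −1.66 to −1.19). The Lamb3 call was lost at an added 5 CPM and at a finer clustering, where it was −0.46 at its smallest. In GENCODE M21 the Lamb3 span (chromosome 1, 193207699 to 193343878, plus strand) overlaps Hsd11b1 and G0s2 on the other strand, 2 marker genes of lipofibroblasts (LipoFBs). Hsd11b1 stood at 1359 and 617 CPM, and G0s2 at 1265 and 307 CPM, in repetitive PBS and bleomycin FBs. In single PBS and bleomycin FBs, with 2 and 7 Lamb3 UMIs, Hsd11b1 stood at 1544 and 714 CPM, and G0s2 at 1248 and 352 CPM. The part of this overlap in the Lamb3 ratio was not tested. The RefSeq span of Lamb3 (chromosome 1, 193294353 to 193343878) overlaps neither gene. The methods of the study name GENCODE M17, which was not used here, the repetitive tables hold 32285 gene rows against 30830 and 30828 in the single-dose tables, and strand counting is not stated, so the identity of Lamb3 reads in FBs is uncertain.

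Of the γ chains, Lamc1, found in most laminins, stood at 139 CPM (130 to 149) and 186 CPM (177 to 195) after single PBS and bleomycin, a log2 ratio of 0.42. After repetitive exposure it stood at 307 CPM (303 to 312) and 302 CPM (297 to 307), a log2 ratio of −0.03 whose interval (−0.06 to 0.00) touches equality. Lamc3 differed in sign between the experiments. It stood at 12.5 CPM (9.85 to 15.7) and 6.87 CPM (5.30 to 8.76) after single PBS and bleomycin, a log2 ratio of −0.78 (interval without the added CPM −1.37 to −0.37). It stood at 18.0 CPM (16.9 to 19.1) and 36.0 CPM (34.4 to 37.7) after repetitive PBS and bleomycin, a log2 ratio of 0.96 (0.89 to 1.11). The PBS and bleomycin intervals do not overlap in either experiment, and neither of these ratios passed the limit for a change. At a finer clustering the ratios were −1.03 and 0.30. In the FBs left without the matrix fibroblast- and myofibroblast-like clusters, the single-dose ratio of Lamc3 was −0.40 and turned to 0.91 at the finer clustering. The repetitive ratio in such FBs was 1.23, past the limit, and 0.51 at the finer clustering.

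**Figure D2:**
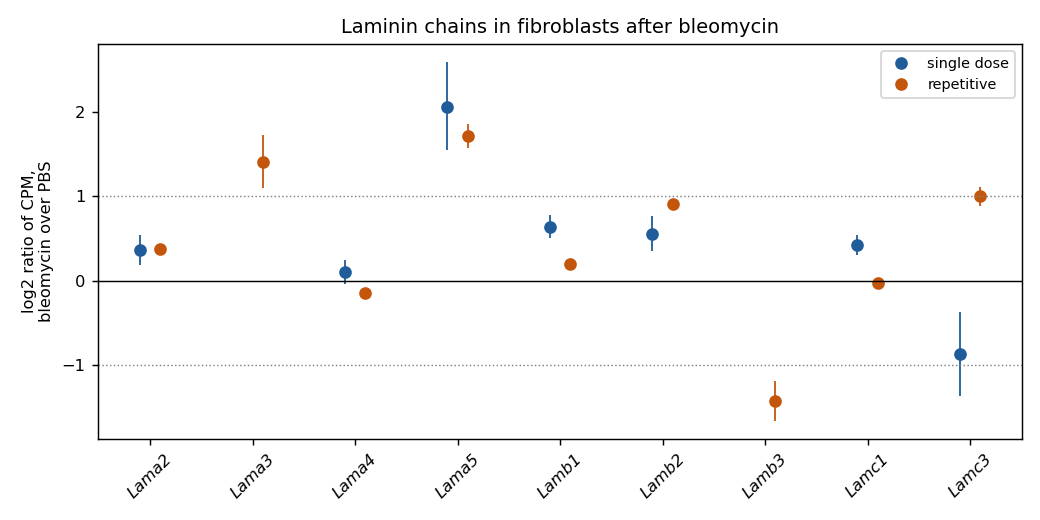
Log2 ratio of CPM, bleomycin over PBS, without an added CPM, in all FBs after a single dose and after repetitive exposure, for the chains with at least 20 UMIs, with exact 95% intervals and dotted lines at 1 and −1. Lama5 lies above 1 with its whole interval in both experiments, and Lamc3 lies on opposite sides of 0.

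Levels of the same chain in single-dose and repetitive FBs are set side by side here, but were not read as an effect of exposure. In PBS FBs the log2 ratio of repetitive over single dose was 3.15 for Lama2, whose gene spans 640 kb, 1.87 for Lama4, 1.42 for Lamb1, 1.14 for Lamc1 and 0.72 for Lamb2, whose gene spans 10.8 kb. It was 0.56 for Lama5 (49.5 kb), 0.49 for Lamc3 (59.2 kb) and, on 5 and 2 UMIs in single PBS FBs, 0.76 for Lama3 (249 kb) and 3.07 for Lamb3 (136 kb). Lama3 and Lamb3 rest on too few UMIs to be ranked. Among the other chains the ratio was highest for Lama2 and Lama4, the longest spans. It was lowest for Lamc3, Lama5 and Lamb2, the shortest spans, though not in strict order. The same ratio over all genes had a median of −0.38 for spans under 10 kb (2902 genes) and 2.11 for spans of 300 kb or more (401 genes). Between these it was −0.04 at 10 to 30 kb, 0.61 at 30 to 100 kb and 1.28 at 100 to 300 kb. Library preparation, gene rows and exposure differ between these experiments and cannot be told apart.

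The FB populations shifted with treatment, so the chains were also read within marker-named groups. LipoFB-like clusters held 568 of the single PBS and 3054 of the repetitive PBS FBs, but 14 of the single bleomycin and 71 of the repetitive bleomycin FBs. The study describes a LipoFB cluster of bleomycin lung that keeps a shared LipoFB signature, Ces1d included. Here the single-dose cluster led by Lcn2, with Ces1d among its leading genes, did not meet the LipoFB rule. It is counted among the other FB clusters, and whether it matches that cluster of the study was not tested. Matrix fibroblast (MatrixFB)-like clusters, with the adventitial markers Dcn, Pi16 and Ly6a, held 65, 164, 554 and 2511 FBs after single PBS, single bleomycin, repetitive PBS and repetitive bleomycin. In the repetitive experiment 525 of the PBS cells lay in a cluster led by Sfrp4, whereas 1601 of the bleomycin cells lay in a shallower cluster led by Lum. Myofibroblast (MyoFB)-like clusters, with Cthrc1 and Spp1, held 147 and 501 cells after single and repetitive bleomycin, and 10 and 0 cells after PBS. Other FB clusters are named by their leading gene. MyoFB-like levels have no usable PBS counterpart, and fewer cells of a group cannot be told apart from a change of its markers.

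Within the groups, Lama5 was low in the MatrixFBs and, after bleomycin, higher in the MyoFBs and in clusters led by Cpm, Lcn2, Frmd5 and Saa3. In single PBS FBs Lama5 stood at 9.59 CPM (6.64 to 13.4) in LipoFB-like cells, with 0 UMIs in MatrixFB-like cells, which allows up to 7.57 CPM (3 counts). After single bleomycin it stood at 35.6 CPM (28.7 to 43.6) in MyoFB-like cells, 34.2 CPM in the Lcn2 cluster, 19.5 CPM in the Nnat cluster and 7.91 CPM in MatrixFB-like cells. In repetitive PBS FBs Lama5 stood at 13.4 CPM (12.2 to 14.8) in LipoFB-like and 1.91 CPM (0.823 to 3.75) in MatrixFB-like cells, with 1.51 CPM in the Adh7 cluster. After repetitive bleomycin it ran from 6.86 CPM (5.39 to 8.61) in MatrixFB-like cells through 36.2 and 36.4 CPM in the Saa3 and Frmd5 clusters to 49.6 CPM (44.5 to 55.1) in the Cpm cluster and 52.0 CPM (45.7 to 59.0) in MyoFB-like cells. The intervals of the Cpm and MyoFB-like groups overlap. Over the remaining FBs Lama5 in MyoFB-like cells had a log2 ratio of 0.49 after single bleomycin (−0.34 to 0.71 over the alternatives) and 0.53 after repetitive bleomycin (0.44 to 0.62), within the limit. Within MatrixFB-like cells alone Lama5 rose after repetitive bleomycin with a log2 ratio of 1.44, and it was the 1 chain of 9 called there (4.19% of genes tested higher, 1.43% lower). This ratio ran from 0.78 to 2.24 over the alternatives, and the call was lost with an added 5 CPM (0.78). After a single dose 0 of 5 chains tested were called in MatrixFB-like cells (9.06% and 4.14%). In the FBs left without the MatrixFB- and MyoFB-like clusters (828 and 472 after single PBS and bleomycin, 4713 and 3332 after repetitive PBS and bleomycin), Lama5 had log2 ratios of 1.77 and 1.72. These remaining FBs lay in different clusters after PBS and bleomycin and are not 1 class. The Lcn2 and Nnat clusters held 217 and 219 single bleomycin and 0 single PBS cells, and the Saa3, Frmd5 and Cpm clusters 1296, 957 and 648 repetitive bleomycin and 18, 11 and 18 repetitive PBS cells. In these remaining FBs 1 of 7 chains was higher and 0 lower after a single dose (6.3% and 3.29% of genes tested), and 3 of 9 higher (5.12%) and 1 lower (1.47%) after repetitive exposure. The latter were Lama3 (1.28), Lama5 and Lamc3 (1.23), and Lamb3 (−1.14). At a finer clustering 4 of the chains were higher after a single dose, Lama5 among them with a log2 ratio of 1.03, and 1 after repetitive exposure.

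**Figure D3:**
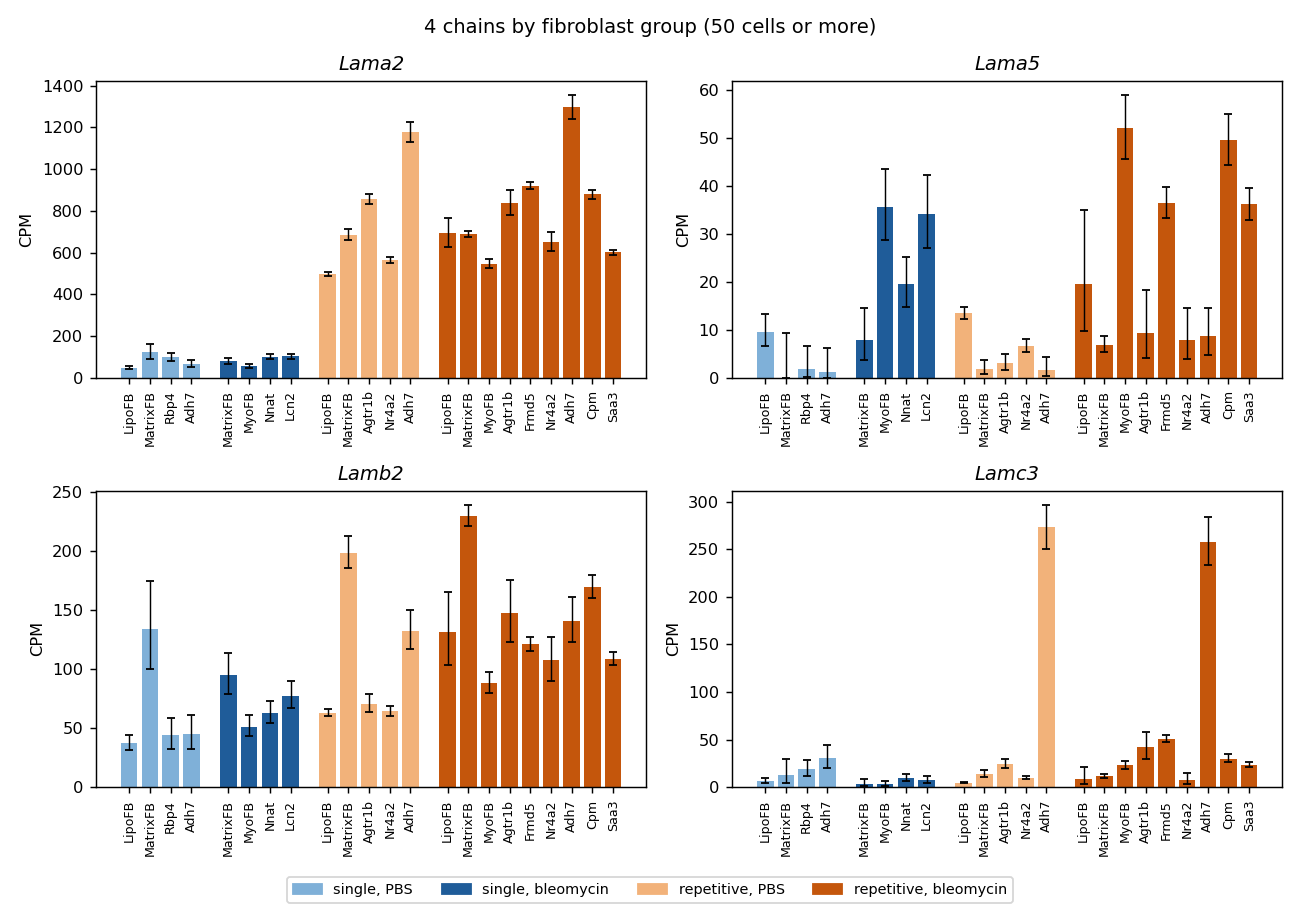
Level (CPM, bars from 0, exact 95% Poisson intervals) of Lama2, Lama5, Lamb2 and Lamc3 in FB groups of at least 50 cells in the 4 lung libraries, with groups named by type or by leading gene. Lama5 is lower in MatrixFB-like than in MyoFB-like cells of both bleomycin libraries, Lamb2 is high in MatrixFB-like cells, and Lamc3 stands out in the Adh7 cluster of the repetitive libraries.

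Lamb2 was higher in MatrixFB-like cells than in the remaining FBs of PBS lungs. It stood at 134 CPM (100 to 175) against 40.2 CPM after single PBS, a log2 ratio of 1.71, and at 198 CPM (185 to 212) against 67.0 CPM after repetitive PBS, a log2 ratio of 1.55. With bleomycin these ratios were 0.44 (94.9 against 69.9 CPM) and 0.85 (230 against 127 CPM). The level in repetitive MatrixFB-like cells was 230 CPM (221 to 239) with bleomycin and 0.21 on the log2 scale over PBS. In single-dose MatrixFB-like cells the log2 ratio of bleomycin over PBS was −0.49 (interval without the added CPM −0.97 to 0.00). In all, 2 of 7 chains tested were higher and 1 lower in MatrixFB-like cells than in the remaining FBs after single PBS (8.14% of genes higher, 17.0% lower), and 0 and 3 after single bleomycin (6.23% and 9.41%). The higher chains after single PBS were Lamb2 and Lama2, and Lama2 lay close to the limit. After repetitive PBS 1 of 9 was higher and 2 lower (7.43% and 9.68%), and after repetitive bleomycin 0 and 3 (5.26% and 6.11%). Lama5 was among the lower chains in 3 libraries. Its log2 ratios were −1.55 after single bleomycin, −1.94 after repetitive PBS and −2.23 after repetitive bleomycin. After single PBS, with 0 UMIs in MatrixFB-like cells and 6.67 CPM in the remaining FBs, a difference was not resolvable at this depth, and Lama5 is the 1 chain counted as lower there. In MyoFB-like cells 0 chains were higher and 1 lower than in the remaining FBs of each bleomycin library, Lamc3 after a single dose (−1.22) and Lamb3 after repetitive exposure (−1.55). Of all genes tested 4.95% were higher and 5.92% lower after a single dose, and 4.4% and 5.94% after repetitive exposure.

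Among the repetitive FB groups the level of Lamc3 was highest in a cluster led by Adh7, the class IV alcohol dehydrogenase. Lamc3 was also among the 10 leading genes of the repetitive Adh7 cluster, though it was left out when the clusters were formed. In repetitive PBS FBs it stood at 273 CPM (251 to 297) in this cluster of 185 cells, against 4.81 CPM in LipoFB-like, 10.0 CPM in the Nr4a2 and 24.4 CPM in the Agtr1b cluster. In repetitive bleomycin FBs it stood at 258 CPM (234 to 284) in 181 such cells, an interval that overlaps that of PBS. Over the other repetitive bleomycin groups Lamc3 ran from 7.96 CPM in Nr4a2 to 50.9 CPM in Frmd5 cells. An Adh7 cluster of 112 cells was also the highest in single PBS FBs (30.5 CPM, 20.1 to 44.3), and after single bleomycin, where the Adh7 cluster held 7 cells with 4 Lamc3 UMIs (66.1 CPM, 18.0 to 169), the groups of at least 50 cells lay between 3.16 and 9.92 CPM. The same Adh7 cells had the highest Lama2 of the repetitive FBs, at 1178 CPM with PBS and 1297 CPM with bleomycin. In the single PBS library Lama2 was instead highest in MatrixFB-like cells, at 124 CPM.

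Lama3 in repetitive bleomycin FBs was spread unevenly. It stood at 17.5 CPM (11.0 to 26.5) in the Nr4a2 and 10.0 CPM (8.43 to 11.8) in the Frmd5 cluster, at 1.15 CPM in the Cpm cluster, and had 0 UMIs in the Adh7 cluster. Lamb1 and Lamc1, the common β and γ chains, were present in every group. In repetitive bleomycin FBs Lamb1 ran from 180 CPM in MatrixFB-like to 496 CPM in Cpm cells, and Lamc1 from 208 CPM in MyoFB-like to 426 CPM in Cpm cells. Lama4 in MyoFB-like cells stood at 75.4 CPM after single and 211 CPM after repetitive bleomycin.

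The partners of laminin in the membrane were counted from a list of 16 genes. Of 14 tested after a single dose 7 rose and 0 fell in FBs, with a median log2 ratio of 1.03, where 8.44% of all genes tested were higher and 3.76% lower, with a median of 0.07. Of 16 tested after repetitive exposure 3 rose and 0 fell, with a median of 0.48, where 5.54% of all genes were higher and 1.68% lower, with a median of 0.09. Col4a1, a collagen IV chain, rose from 141 to 574 CPM after a single dose and from 246 to 662 CPM after repetitive exposure, log2 ratios of 2.01 and 1.43. Its partner chain Col4a2 had log2 ratios of 2.36 and 1.72, and Nid2, a nidogen, of 1.17 and 1.02. Hspg2 (perlecan) and Nid1 rose after a single dose, with log2 ratios of 1.38 and 1.33. The integrin chains Itga6 and Itga7 also passed the limit after a single dose, from 2 UMIs each in PBS FBs to 24 and 18 UMIs. The receptors with more UMIs moved less, with Itgb1 at 190 and 311 CPM and at 555 and 573 CPM, and Dag1 (dystroglycan) at 87.2 and 110 CPM and at 120 and 151 CPM, in PBS and bleomycin FBs of the single-dose and repetitive experiments.

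In organoids, the question was how the chains divide between epithelium and FBs, and whether fibrogenic FBs go with other levels than normal FBs. Of the chains tested, most differed in level between epithelium and FBs. In normal organoids Lama3, Lama5 and Lamb3 were higher in the 1716 epithelial cells than in FBs, with log2 ratios of 4.27, 2.19 and 5.10, and Lama2, Lama4 and Lamb1 were lower, with log2 ratios of −4.65, −5.51 and −2.77. In fibrogenic organoids (1436 epithelial cells) these were 4.92, 2.28 and 5.47, and −4.52, −4.93 and −2.88. Lamb2 (−0.13 and −0.04) and Lamc1 (−0.65 and −0.75) stayed within the limit. Thus 3 of 8 chains tested were higher and 3 lower in both libraries, where 12.8% and 13.6% of all genes tested were higher, and 14.0% and 13.1% lower, in normal and fibrogenic organoids.

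**Figure D4:**
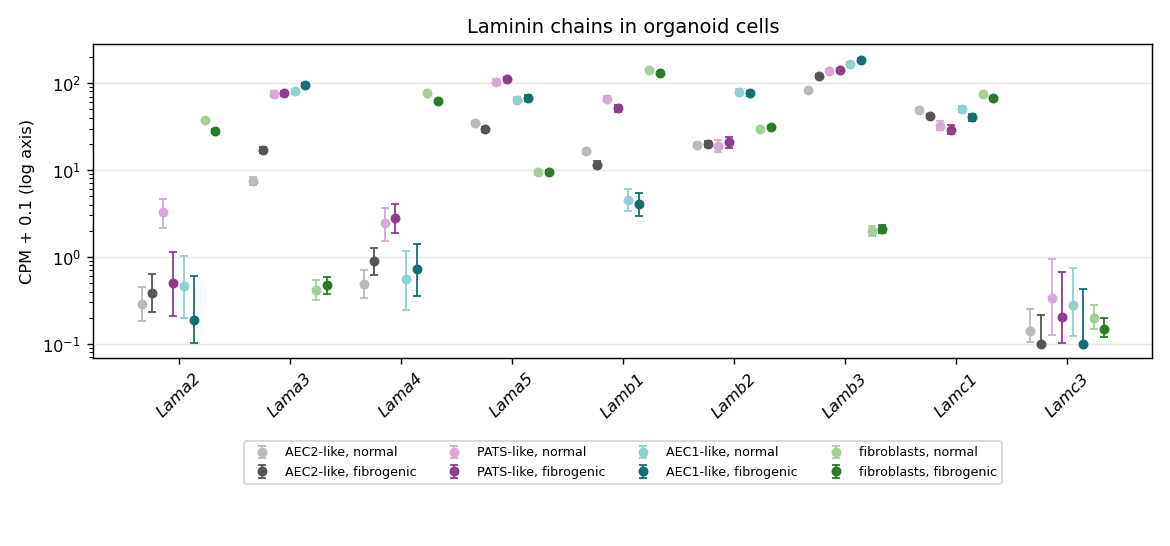
Level of each chain (CPM plus 0.1, log axis, exact 95% Poisson intervals) in AEC2-like, PATS-like and AEC1-like cells and FBs of normal and fibrogenic organoids. Lama2 and Lama4 are highest in FBs, Lama3 and Lamb3 in the epithelial groups, Lamb1 is higher in PATS-like than in AEC1-like cells, and Lamb2 is higher in AEC1-like than in PATS-like cells.

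The 3 epithelial states differed in the levels of several chains. Lama3 stood at 7.42 CPM (6.67 to 8.23) in 1043 AEC2-like, 75.0 CPM (69.3 to 81.0) in 169 PATS-like and 80.3 CPM (75.1 to 85.8) in 301 AEC1-like cells of normal organoids. In fibrogenic organoids it stood at 16.9 CPM (15.5 to 18.4) in 698 AEC2-like, 75.9 CPM (70.6 to 81.6) in 263 PATS-like and 95.4 CPM (89.7 to 101) in 332 AEC1-like cells. AEC2-like cells were lowest in both libraries, and the PATS-like and AEC1-like intervals overlapped in the normal library but not in the fibrogenic library. Over AEC2-like cells the log2 ratio of Lama3 was 3.17 and 2.11 in PATS-like cells and 3.27 and 2.43 in AEC1-like cells, normal and fibrogenic. Thinned to 10000 UMIs, 5.44% of normal AEC2-like (4.12 to 7.04), 49.7% of PATS-like and 47.0% of AEC1-like cells had Lama3, and 0.277% of FBs did. In fibrogenic organoids the same shares were 13.5% (11.0 to 16.3), 45.9% and 55.2%, with 0.211% in FBs. Thinning left out 51 and 25 AEC2-like cells, and without it the AEC2-like shares were 18.5% and 35.2%.

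Lama5 was highest in PATS-like cells. It stood at 34.4, 104 and 63.9 CPM in AEC2-, PATS- and AEC1-like cells of normal organoids, and at 29.5, 111 and 67.4 CPM in fibrogenic organoids. The PATS-like over AEC2-like log2 ratios of Lama5 were 1.57 and 1.88. Lamb1 was also highest in PATS-like cells, at 16.3, 65.4 (60.1 to 71.0) and 4.44 CPM in normal AEC2-, PATS- and AEC1-like cells, and 11.5, 51.0 (46.6 to 55.6) and 3.95 CPM in fibrogenic ones. The PATS-like over AEC2-like log2 ratio of Lamb1 was 1.94 and 2.06, and with cells gated one by one on their own markers it was 0.89 and 0.44, within the limit. Lamb1 in PATS-like cells stood at 45.8% and 38.7% of its FB level in normal and fibrogenic organoids, above the 1.21 to 9.14% and 2.89 to 4.63% reached there by FB markers. The AEC1-like over PATS-like log2 ratio of Lamb1 was −3.61 and −3.39. Lamb2 was highest in AEC1-like cells, with AEC2- and PATS-like cells close together, at 19.1, 18.7 and 79.3 CPM (74.2 to 84.8) in normal and 19.7, 20.7 and 76.3 CPM (71.3 to 81.6) in fibrogenic organoids. The AEC1-like over PATS-like log2 ratio of Lamb2 was 2.03 and 1.83.

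Lamb3 and Lamc1 moved less between the states. Lamb3 stood at 83.2, 138 and 167 CPM in normal AEC2-, PATS- and AEC1-like cells and at 122, 141 and 185 CPM in fibrogenic ones. Lamc1 stood at 49.3, 32.2 and 50.3 CPM, and at 42.1, 28.9 and 40.6 CPM. Lamc3 reached at most 0.233 CPM in any epithelial group. Lama3 and Lamb3 belong to the same epithelial trimer, and at 10000 UMIs 3.43% of AEC2-like, 34.2% of PATS-like and 37.1% of AEC1-like cells of normal organoids had both, with 8.62%, 29.8% and 46.2% in fibrogenic organoids. No FB had both at that depth, which allows up to 0.204% and 0.195%.

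In normal organoids 5 of 8 chains tested were higher and 0 lower in PATS-like than in AEC2-like cells (17.5% of genes higher, 9.58% lower), and in fibrogenic organoids 4 of 7 and 0 (16.3% and 10.7%). In AEC1-like over AEC2-like cells 2 of 7 were higher and 1 lower in normal (8.42% and 5.26%), and 3 of 7 and 1 in fibrogenic organoids (8.07% and 5.97%). In AEC1-like over PATS-like cells 1 of 8 was higher and 3 lower in normal (9.59% and 12.8%), and 1 of 7 and 2 in fibrogenic organoids (9.01% and 11.0%). The PATS-like counts include the FB chains Lama2 and Lama4. Of the 27 Lama2 UMIs in normal PATS-like cells 18 lay in 1 cell, and the 20 Lama4 UMIs lay in 9 cells. With cells gated one by one on their own markers, both chains turned sign in normal organoids (Lama2 −0.13, Lama4 −1.02).

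Between fibrogenic and normal organoids few chains passed the limit. In all epithelium 0 of 8 chains passed the limit in either direction, where 0.199% of genes tested were higher and 0.163% lower, and the largest log2 ratios were 0.71 for Lama3 and 0.43 for Lamb3. Within AEC2-like cells Lama3 rose, with a log2 ratio of 1.08 (1.18 without the added CPM, interval 0.99 to 1.38), from 360 UMIs in 193 cells to 531 UMIs in 246 cells. It was 1 of 7 chains tested there, where 0.306% of genes tested were higher and 0.0999% lower. The Lama3 call lay close to the limit, with a log2 ratio of 0.82 to 1.17 over the alternatives, and was lost with an added 5 CPM and with cells gated one by one. Lamb3 had a log2 ratio of 0.55 in the same cells, and Lama5 of −0.22. The AEC2-like cells were divided unevenly between clusters, with 659 normal and 178 fibrogenic cells in a cluster led by Dmkn and 384 and 520 in a cluster led by Bex2. Proliferating AEC2-like cells had Lama3 at 5.77 and 6.49 CPM. In AEC1-like cells 0 of 6 chains passed the limit (0.532% higher, 0.837% lower). In PATS-like cells 0 of 8 were higher and 1 lower (0.54% and 1.12%), Lama2, on the few cells named above. In all unnamed barcodes together Lama3 stood at 5.36 CPM (4.29 to 6.61) in normal and 8.87 CPM (7.72 to 10.1) in fibrogenic organoids, and the part of these barcodes in the Lama3 ratio was not tested.

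In organoid FBs 0 of 8 chains tested differed past the limit between fibrogenic and normal organoids, in either direction (0.259% of genes higher, 0.663% lower). Lama2 stood at 37.6 CPM (36.5 to 38.8) and 28.3 CPM (27.4 to 29.1) in normal and fibrogenic organoid FBs, Lama4 at 76.7 and 62.2 CPM, Lamb1 at 143 and 132 CPM and Lamc1 at 75.2 and 67.2 CPM. Lama5, which separated bleomycin from PBS FBs of the lung, stood at 9.27 CPM in normal and 9.48 CPM in fibrogenic organoid FBs. Against the single-dose lung FBs of the same treatment, 1 of 9 chains was higher and 1 lower in normal organoids (22.0% of genes higher, 13.0% lower), and 0 and 5 in fibrogenic organoids (14.4% and 11.1%). The chain higher in normal organoids was Lamb3 (1.11, and 0.88 after centring), which had 2 UMIs in single PBS FBs and whose reads in FBs are uncertain. Lamc3 was the chain lower in both, at 11 UMIs (0.101 CPM) in normal and 7 UMIs (0.0473 CPM) in fibrogenic organoid FBs. Lama2, Lama5, Lamb2 and Lamc1 were the others lower in fibrogenic organoid FBs, with log2 ratios of −1.54, −1.35, −1.10 and −1.45. Culture, library preparation and depth differ with the setting and cannot be told apart.

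The laminin receptors and membrane partners divided by epithelial state as well. Itgb4, which pairs with Itga6 in the hemidesmosome, stood at 0.927, 55.4 and 1.90 CPM in AEC2-, PATS- and AEC1-like cells of normal organoids and at 0.540, 55.3 and 5.83 CPM in fibrogenic ones. Itgb1 stood at 153, 847 and 255 CPM in normal organoids, and Itga3, its laminin-binding partner, at 17.4, 118 and 86.3 CPM. Dag1 was highest in AEC1-like cells, at 122, 132 and 723 CPM in normal and 144, 137 and 712 CPM in fibrogenic organoids, and Bcam, an α5-chain receptor, stood at 246, 112 and 530 CPM in normal organoids. Of the 16 partners 8 were higher and 3 lower in PATS-like than AEC2-like cells of normal organoids (17.5% and 9.58% of genes). The lower ones were Itga7, Col18a1 and Bcam, with log2 ratios of −2.80, −1.66 and −1.12. In fibrogenic organoids 8 were higher and 2 lower (16.3% and 10.7% of genes), and Bcam was within the limit at −0.81. In AEC1-like over AEC2-like cells 6 partners were higher and 1 lower in normal (8.42% and 5.26%), and 7 and 1 in fibrogenic organoids (8.07% and 5.97%). In AEC1-like over PATS-like cells 3 were higher and 5 lower in both (9.59% and 12.8%, and 9.01% and 11.0%). Ntn4, a laminin-related netrin, had log2 ratios over AEC2-like cells of 4.28 and 4.37 in PATS-like and 3.62 and 3.59 in AEC1-like cells. Between fibrogenic and normal organoids 0 of 16 partners passed the limit in all epithelium, in AEC2- and PATS-like cells and in FBs. In AEC1-like cells 1 of 16 was higher, Itgb4 (1.23, 21 and 65 UMIs in normal and fibrogenic), and 1 lower, Itga7, an α chain of laminin-binding integrins (−1.05), where 0.532% and 0.837% of genes passed.

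The GFP+ sorts also held barcodes of other cell types. In T cell-, macrophage- and neutrophil-like barcodes of the repetitive PBS library the chains of FBs stood near the levels of FB markers. In the repetitive PBS library 5 FB markers stood in T cell-like barcodes at up to 40.9% of their FB level, and Lama2, Lama4, Lamb1 and Lamc1 at 35.3 to 44.2%. In macrophage-like barcodes the same ranges were 45.5 to 55.2% and 42.6 to 49.9%, and in neutrophil-like barcodes 1.55 to 7.40% and 0 to 3.47%. In endothelial-like barcodes the markers reached 31.7 to 59.3% and the chains 47.1 to 63.3%. In 131 smooth muscle and mural-like barcodes after repetitive bleomycin the markers reached 36.1 to 73.8% and the chains 40.8 to 114%. The part of FB RNA in these levels was not tested. Lama5 in endothelial-like barcodes lay above the share reached by FB markers, at 42.9 CPM (34.4 to 52.9) against 9.55 CPM in FBs after repetitive PBS, a log2 ratio of 2.06 (interval without the added CPM 1.83 to 2.50). After repetitive bleomycin it stood at 35.5 CPM in endothelial-like barcodes and 31.4 CPM in FBs, a log2 ratio of 0.18. In endothelial-like barcodes 1 of 9 chains was higher and 2 lower than in FBs after repetitive PBS (10.5% and 6.79% of genes), and 0 and 4 after repetitive bleomycin (7.73% and 8.81%).

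**Figure D5:**
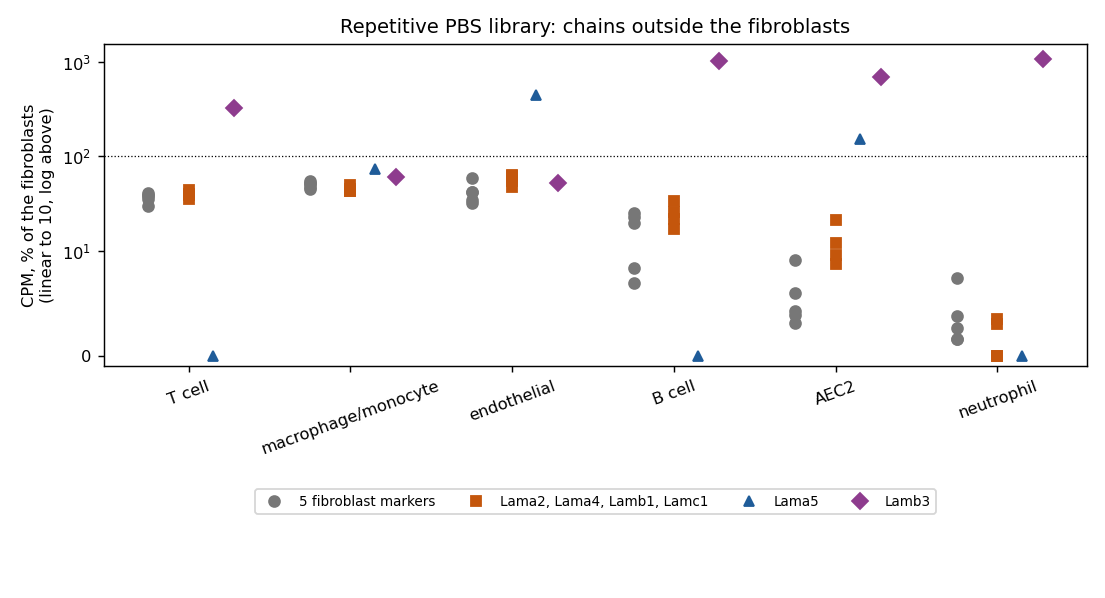
Level of 5 FB markers and of laminin chains in other cell types of the repetitive PBS library, as a percent of the FB level (linear to 10%, log above, dotted line at 100%). Lama2, Lama4, Lamb1 and Lamc1 lie among or near the FB markers in T cell-, macrophage- and neutrophil-like barcodes, whereas Lama5 in endothelial-like barcodes and Lamb3 in T cell-, B cell-, AEC2- and neutrophil-like barcodes lie above 100%.

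Genes with the pattern most like each chain were sought by Pearson r of log2(CPM + 1) over 42 cell groups of at least 50 cells from the 6 libraries, which share libraries and background RNA, so r is a description only. The groups of all experiments were pooled, and levels shifted between experiments, as for Lama2 at 65.1 and 586 CPM in single and repetitive PBS FBs. Such shifts also enter r, and their part was not tested. Lama2 and Lama4 followed each other (0.98). The 3 nearest genes outside the chains and partners were Zfp521, Cped1 and Runx1t1 for Lama2 (0.98 each), and Runx1t1, Plxdc2 and C1qtnf7 for Lama4 (0.99 each). Lamc3 followed Ptch1, the hedgehog receptor (0.96), ahead of Fancc and C1qtnf3 (0.89 each). Lama3 lay nearest to Rhbdl2, Itgb6 and Cyp4f39 (0.80 to 0.81) and Lama5 to Phldb2, Grb14 and Dcbld1 (0.80 to 0.81). Lamb1 lay nearest to Cp (0.97), Cdh11 and Nr2f2, Lamb2 to Dnm1 (0.87), Thbs3 and Sntb2, Lamb3 to Ccdc125 (0.92), Prkcz and Ggact, and Lamc1 to Abca8b (0.96), Sgce and Antxr1. Among the chains themselves Lama3 and Lamb3 had an r of 0.65, Lama3 and Lama5 of 0.61, and Lama4 and Lamb3 of −0.74.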

How the data were processed

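Alignment and counting were done by the authors in Cell Ranger (3.0.1, GRCm38, Gencode M17 in the methods of the study, which name no exception) and the deposited values are raw UMI counts for each gene in each barcode. The single-dose tables hold 30830 and 30828 gene rows and the other 4 hold 32285 each, so whether 1 annotation was used for all is uncertain. These are counts of 3′ molecules and were not divided by gene length, so levels are compared between samples for 1 chain and not between chains. The chains, partner list and comparisons were chosen with earlier results of these data known.

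Work was done in Python 3.11.15 with anndata 0.12.19, scanpy 1.11.5, numpy 2.4.6, scipy 1.17.1 and pandas 2.3.3, and figures were drawn with matplotlib 3.10.9. The 2 libraries of an experiment were clustered together, leaving out mitochondrial genes, the 9 chains and the 16 partners, on 2000 variable genes, 30 principal components (scikit-learn 1.9.0) and 20 neighbours (Leiden, igraph 0.11.9, resolution 1). Barcodes whose mitochondrial or erythrocyte share exceeded the median of their cluster by 3 scaled deviations were dropped (26 to 906 per library), together with clusters over 25% mitochondrial or 0.5% erythrocyte counts. A cluster was named when a log2 ratio of 1 over other clusters and detection in 20% of its cells were met by at least 3, and by 50%, of a type's markers. A cluster that met this for no type was called FB where at least 4 FB markers reached 20% of their highest cluster level and 20% of its cells. By this rule the repetitive clusters led by Saa3, Adh7, Nr4a2 and Agtr1b (0 of 6 FB markers raised) were FBs. Clusters with both epithelial and FB markers also stayed unnamed. An organoid cluster led by Cd177, with 5 FB markers at that level and a median of 68219 UMIs, was left unnamed. Clusters with a median UMI count under 0.5 of that of their own libraries stayed unnamed unless a marker was among their 10 leading genes. That limit of 0.5 was chosen after the clusters were seen. Unnamed clusters between 1 in 3 and this limit held 4.71% and 17.7% of the normal and fibrogenic organoid barcodes and 0.554% and 13.3% of the repetitive PBS and bleomycin barcodes. Whether a limit of 1 in 3 would have named them was not tested. Scrublet marked 0 to 18 doublets per library, too few to rely on, so the barcodes it marked were kept.

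UMIs were summed per library and group. CPM, exact 95% Poisson intervals and log2 ratios after adding 1 CPM were computed for genes with at least 20 UMIs, and a log2 ratio of 1 in size is called a change. With 1 library per condition there is no p-value. For a level of 0 the bound given is 3 counts, and for a share of 0 the upper end of the exact interval. Named were all 9 chains, partners past the limit or used for a count, the 3 genes most like each chain, markers that check a label, and the leading gene of a cluster. The receptors Itgb1, Itga3, Dag1 and Bcam were named after their values were seen. The ratio calculation alone was run on Poisson counts simulated from whole-library sums with known fold changes. That run checks arithmetic and does not cover cell groups, spread between cells, low counts or background RNA.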

Additional observations from a re-analysis of the deposited data

Results flagged for a closer look

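Lamc3 had a log2 ratio of bleomycin over PBS of −0.78 in single-dose FBs and 0.96 in repetitive FBs. The signs were opposite, and the difference was not tested, since each condition is 1 library. The single-dose sign depended on the cells taken. It was −0.40 in the FBs left without the MatrixFB- and MyoFB-like clusters, and 0.91 in those FBs at a finer clustering. The repetitive ratio in such FBs was 1.23, and 0.51 at the finer clustering.

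Other values were flagged because a chain stood outside FBs far above the share that FB markers reach in the same barcodes. Lamb3 in the repetitive PBS library stood at 104 CPM in B cell-like (23 UMIs), 33.4 CPM in T cell-like (29 UMIs), 110.1 CPM in neutrophil-like (12 UMIs) and 71.5 CPM in AEC2-like barcodes (34 UMIs). In the repetitive bleomycin library Lamb3 stood at 61.8 CPM in B cell-like, 8.93 CPM in T cell-like, 5.46 CPM in macrophage- and monocyte-like and 75.7 CPM in AEC2-like barcodes. The single-dose B cell-like barcodes also held Lamb3, with 4 UMIs in 2 of 10 after PBS and 6 UMIs in 5 of 17 after bleomycin. The single-dose FBs held 2 UMIs in 903 and 7 UMIs in 783 barcodes. The Lamb3 span overlaps genes on the other strand in GENCODE M21 but not in RefSeq, whether the repetitive libraries were counted on the annotation named by the study is uncertain, and strand counting is not stated, so Lamb3 outside epithelium is uncertain. In the 36 AEC2-like barcodes of the repetitive bleomycin library Lama3 stood at 69.7 CPM (44.2 to 105, 23 UMIs in 5 cells, 12 of them in 1 cell) and Lama5 at 45.4 CPM. In the 30 AEC2-like barcodes after repetitive PBS Lama3 stood at 12.6 CPM (4.63 to 27.5, 6 UMIs), Lamb2 at 31.6 CPM and Lamc1 at 65.2 CPM. Lama3 in T cell-like barcodes after repetitive bleomycin stood at 7.02 CPM (11 UMIs).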

How the results depend on the processing

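No paired analysis was possible because each condition has 1 library. The number of chains past the limit in repetitive FBs went from 2 to 1 higher with an added 5 CPM, with centring on the median gene and with clusters at resolution 2, and from 1 to 0 lower with an added 5 CPM and at resolution 2. By the mean CPM of each cell Lamb2 passed the limit there as well (1.004). In single-dose FBs 1 chain in place of 0 was lower at resolution 2. In organoid epithelium 1 chain in place of 0 was higher by the mean CPM of each cell. Organoid over lung FBs had, for normal, 2 lower with 0.1 CPM added and 0 higher and 3 lower after centring, and for fibrogenic 1 higher and 6 in place of 5 lower with 0.1 CPM added, Lama3 being the added lower chain in both (−1.15 and −1.16). With cells gated one by one, 4 chains were higher in AEC1-like over AEC2-like cells of normal organoids, and 2 higher and 1 lower in PATS-like over AEC2-like cells. That gate reversed Lama2 (−0.13) and Lama4 (−1.02) in PATS-like over AEC2-like and Lama2 (0.095) and Lama4 (0.042) in AEC1-like over PATS-like cells of normal organoids, and Lama4 (−1.38) in PATS-like over AEC2-like cells of fibrogenic organoids. The mean CPM of each cell reversed Lama3 in endothelial-like barcodes over FBs after repetitive PBS (0.80). Of 481 recomputed values past the limit 445 stayed past it in the same direction and 36 did not, 6 of them reversed. Of 1234 recomputed values of ratios within the limit, 43 passed it. The log2 ratio of Lama5 in FBs stayed above 1 under every alternative, from 1.42 to 2.05 after a single dose and from 1.30 to 2.48 after repetitive exposure. Counting a shallow cluster with FB markers as FBs, chosen after seeing the data, changed no call in repetitive FBs (2 higher, 1 lower). Leaving out FBs with an epithelial marker other than Sftpc, also chosen after seeing the data, changed none in either experiment. That choice left out too few FBs to show the part of epithelial RNA. The gate was not run for 11 comparisons of subtypes it cannot define. Except where the fewer or other cells of an alternative show it, the cause was not tested. Lama3 and Lamb3 rest on 2 to 9 UMIs in single-dose FBs, and the shallow barcodes of the fibrogenic and repetitive bleomycin libraries limit what could be named there.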
